A study of Mus musculus with 7 samples.

Results

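The Slc25 genes encode the mitochondrial carrier family. Members were taken as every row of the deposited expression table whose Ensembl identifier maps to a mouse symbol of the form Slc25a followed by a number. The rule gave 47 genes of 48526 in the table, and it used no expression value. The study sequenced RNA of mouse brain at 24 months of age in 7 libraries, of which 4 are labelled on and 3 off. Per the labels, mice of both groups carried the V1S and SV2 constructs with the fluorescent protein Venus, the on group received glucose and the off group received Dox. The state of the constructs and the treatment changed together and cannot be told apart, and animals without the constructs were not analysed here. Neither the brain region nor the promoter driving the constructs is named in the labels. Whether the libraries come from different animals is not stated either, and p-values therefore measure only the spread between these libraries, which may be technical.

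Mitochondrial carriers are small proteins of the inner mitochondrial membrane that move nucleotides, phosphate, amino acids, organic acids and cofactors between the cytosol and the matrix. Each is built of repeated pairs of membrane helices and exchanges or co-transports its substrate through a single central cavity. In brain, carriers of aspartate, glutamate and oxoglutarate bring the electrons of cytosolic NADH to the respiratory chain, and the carriers of phosphate and of ADP and ATP feed and empty the ATP synthase.

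The deposited values are regularized logarithms (rlog) of normalised counts, on the log2 scale. Differences are on minus off on that scale, so a negative difference means lower in on libraries, and rlog shrinkage understates differences of weakly expressed genes. Genes were tested with limma where their mean rlog was at least 3, and a gene was called at a Benjamini-Hochberg adjusted p under 0.05. Of the 47 members, 42 were tested. Slc25a2, Slc25a31, Slc25a41 and Slc25a43 stayed below the filter with group means between 1.88 and 2.85, and Slc25a54 is listed at 0 in every library. The number of reads per library is unknown, so no counting interval can be given.

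On replicate 1 stood apart from the other on libraries. On the first principal component of all tested genes, which held 47.7% of the variance, it lay at -4.10, while the other on libraries lay between 7.19 and 9.15 and the off libraries between -8.64 and -3.56. The position of a library also went with transcript length. The Spearman correlation of a gene's deviation from its mean with the length of its longest basic GENCODE transcript, across 17831 genes, was 0.269 to 0.287 in on replicates 2 to 4 and -0.0445 in on replicate 1, against -0.32 to -0.231 in the off libraries. Of a list of 6 nuclear and RNA quality genes, 2 rose: Malat1 by 0.61 (SE 0.11, limma adjusted p = 0.0159) and Snhg14 by 0.29 (SE 0.05, limma adjusted p = 0.0115), where 0.816% of all tested genes were called higher. After a correction for length and GC content Malat1 passed at 0.54 (limma adjusted p = 0.0462) and Snhg14 did not at 0.14 (limma adjusted p = 0.109). Without on replicate 1 limma called 5 of the 6 higher. In that fit 16.3% of all tested genes were called in either direction, 8.02% lower and the rest of the 16.3% higher. The summed level of that list was 17.98 in on replicate 1 and up to 18.40 in the other on libraries, against 17.84 to 18.08 in off libraries. The part of these differences in the results below was not tested.

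Levels of the family spanned a wide range. Per kilobase of transcript, as rlog minus log2 of the length in kilobases, the highest level was that of Slc25a4, the ADP/ATP translocase of heart, muscle and brain, at 13.50 ± 0.08 (SD over the 7 libraries). Slc25a3, the phosphate carrier, followed at 12.94 ± 0.10, Slc25a5, the second ADP/ATP translocase, at 12.42 ± 0.09, and Slc25a23, a calcium-regulated carrier of ATP-Mg and phosphate, at 11.76 ± 0.04. The next members were closer together. The glutamate carrier Slc25a22 had a level per kilobase of 10.98 ± 0.09 and the oxoglutarate carrier Slc25a11 one of 10.91 ± 0.10, a gap smaller than either spread. The glutathione carrier Slc25a39 at 10.07 ± 0.09 and the aspartate/glutamate carrier Slc25a12 at 10.02 ± 0.06 likewise lay within their spread. These levels take the longest basic transcript. The longest transcript of any type has 4039 bases in place of 1612 for Slc25a3, and 5590 in place of 2811 for Slc25a22. The places of Slc25a3 and Slc25a22 in this order therefore depend on the transcript taken, which the SD over libraries does not cover. Of the 46 members with values above 0, Slc25a31, a testis form of the ADP/ATP translocase, had the lowest level per kilobase at 0.79 ± 0.04.

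**Figure D1:**
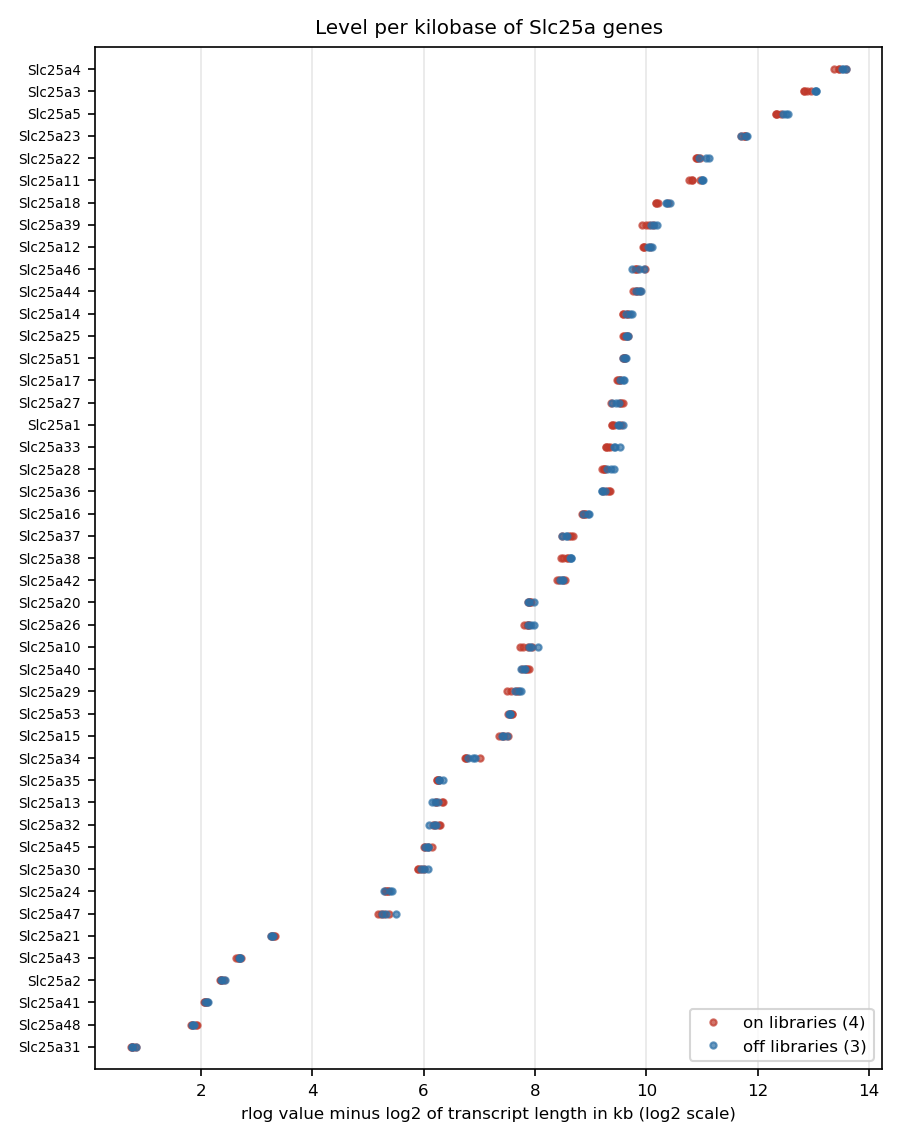
Level per kilobase of Slc25a members (rlog minus log2 of the length of the longest basic transcript in kilobases), 1 point per library (on red, off blue), with members ordered by level, 1 member left out. Slc25a4, Slc25a3 and Slc25a5 lead at 13.50, 12.94 and 12.42, and the points of a member lie close together compared with the distance between members.

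Across the family, differences between on and off libraries were small and mostly negative. Of the 42 members tested, 1 fell and none rose at the adjusted threshold, which is 2.38% of the members against 2.6% of all tested genes called in either direction, 1.79% called lower and 0.816% called higher. At an unadjusted limma p under 0.05, 10 of the 42 members were lower and 0 higher. This is a larger share than the 10.6% of all tested genes that were lower, where 20.7% passed in either direction. The on libraries all lay below the off libraries for 7 members (16.7% of the 42) and all above them for 0, against 8.09% of all tested genes below, 7.13% above and 15.2% in either direction. These members were Slc25a3, Slc25a5, Slc25a11, Slc25a17, Slc25a28, Slc25a33 and Slc25a38. Differences were negative for 32 of 42 members (76.2%), against 48.5% of all tested genes, and the median difference was -0.05, against 0.00 over all tested genes. In bulk tissue, fewer cells of a type and less RNA per cell cannot be told apart.

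The count of called members depended on on replicate 1. For 29 of 42 members the value of this library lay nearer the off mean than the mean of the other on libraries. The mean deviation of the members from their own means was 0.0071 in on replicate 1 and -0.0369, -0.0193 and -0.0315 in on replicates 2 to 4, against 0.0225, 0.0341 and 0.0239 in off replicates 1 to 3. Without on replicate 1, limma called 7 of the 42 members, all lower (Slc25a3, Slc25a5, Slc25a11, Slc25a18, Slc25a22, Slc25a33 and Slc25a39), where 8.02% of all tested genes were called lower and 16.3% in either direction. With all libraries and limma's array weights, 6 of the 42 members were called, all lower, where 6.34% of all tested genes were called lower.

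**Figure D2:**
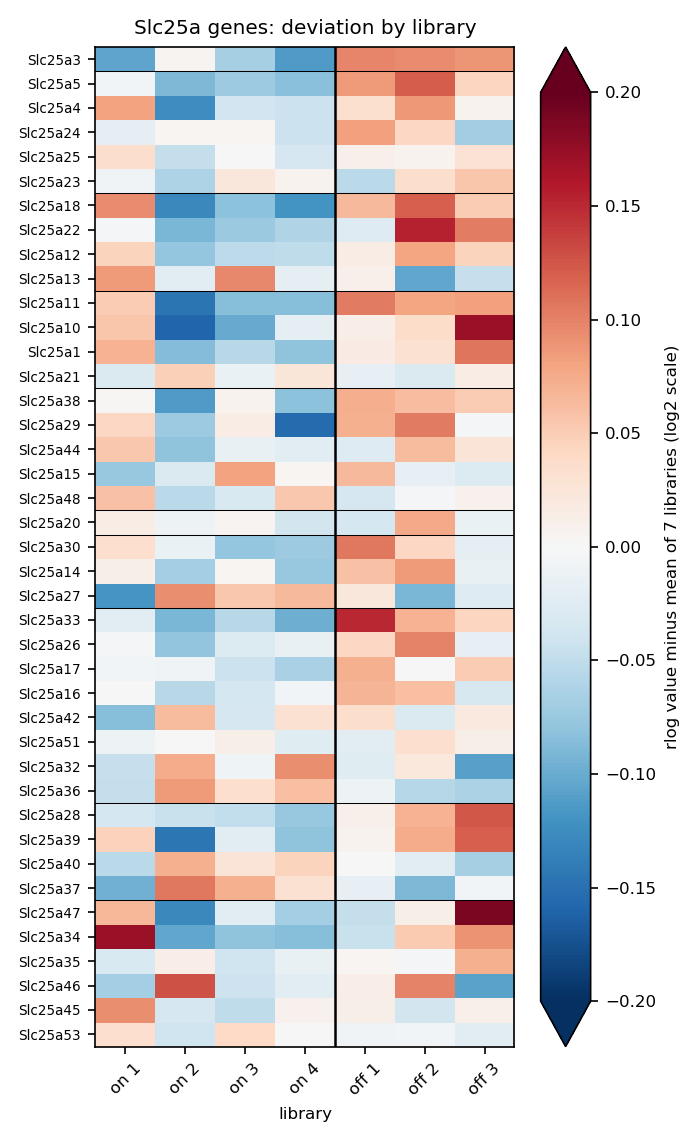
Deviation of the tested Slc25a members but 1 (rows, grouped by role) from its mean over the 7 libraries (columns, on replicates then off replicates), in rlog units on the log2 scale. On replicate 1 looks more like the off libraries than on replicates 2 to 4 do, which matches its place nearer the off mean for 29 of 42 members.

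Slc25a3 brings inorganic phosphate, and in mouse cells also copper, into the matrix. Its gene lies on chromosome 10 at 91116574 to 91124059 on the minus strand (GRCm38). Its rlog was 13.52, 13.64, 13.56 and 13.52 in on replicates 1 to 4, against 13.73, 13.72 and 13.72 in off replicates 1 to 3. All on libraries lay below all off libraries, and the off libraries were nearly alike. Slc25a3 fell by 0.16 on the log2 scale (SE 0.04, limma adjusted p = 0.0439), with means of 13.56 ± 0.05 in on libraries and 13.72 ± 0.01 in off libraries (SD, n = 4 and 3). The call was near the threshold. It held without on replicate 1 (adjusted p = 0.0160) or on replicate 2 (adjusted p = 0.0393) and was lost without any other single library, with limma adjusted p between 0.0857 and 0.169. It was also lost when transcript length and GC content were corrected for, with a difference of -0.11 (SE 0.04, limma adjusted p = 0.181), and kept when that correction took the longest transcript of any type (4039 bases) in place of the longest basic one (1612 bases), with a difference of -0.18 (SE 0.03, limma adjusted p = 0.0265). The correction with the longest transcript of any type was added after the data were seen. Of the 50-base windows of the Slc25a3 transcript, 3.90% also occur in another annotated gene.

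To show what lies before the start of the called member and of the next ones by p, promoter sequence was taken from RefSeq (GRCm38.p6), up to 250 bases before the RefSeq start and only outside the GENCODE gene. Both strands were searched for the NRF1 motif (GCGC, then N, then TGCGC), the ERR motif TNAAGGTCA, the CRE TGACGTCA, the GC box GGGCGG, the CCAAT box CCAAT and the E box CACGTG. Capitals mark these motifs, on either strand. Slc25a3 is shown at chr10:91124060-91124217 (minus strand), Slc25a5 at chrX:36795347-36795596 (plus strand) and Slc25a33 at chr4:149774278-149774517 (minus strand). The 250 bases before Slc25a11 lie inside its GENCODE gene and are not shown.
Slc25a3: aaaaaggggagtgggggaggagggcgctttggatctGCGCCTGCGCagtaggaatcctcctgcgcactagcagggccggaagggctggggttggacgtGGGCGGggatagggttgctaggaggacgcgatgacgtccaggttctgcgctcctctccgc
Slc25a5: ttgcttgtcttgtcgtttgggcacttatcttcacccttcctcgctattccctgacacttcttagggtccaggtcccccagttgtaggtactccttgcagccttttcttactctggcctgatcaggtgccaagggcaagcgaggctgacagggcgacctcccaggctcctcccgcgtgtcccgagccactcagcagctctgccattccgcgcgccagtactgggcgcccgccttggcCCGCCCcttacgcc
Slc25a33: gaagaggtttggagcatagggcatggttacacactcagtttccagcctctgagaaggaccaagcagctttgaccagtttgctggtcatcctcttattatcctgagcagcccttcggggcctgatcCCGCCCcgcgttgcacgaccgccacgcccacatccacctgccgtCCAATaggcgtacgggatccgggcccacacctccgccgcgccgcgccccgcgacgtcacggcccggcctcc

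All of these stretches hold a GC box, Slc25a3 also holds the NRF1 motif and Slc25a33 a CCAAT box. RefSeq gave 46 starts for 36 members. Unlike the printed stretches, the counts that follow take all 250 bases before each start, also those inside a GENCODE gene. The GC box stood before 69.6% of them, against 32.7% of all 32851 starts, the CCAAT box before 45.7% against 33.8%, and the E box before 17.4% against 6.02%. The NRF1 motif stood before 4.35% of member starts, of the genes Slc25a3 and Slc25a31, against 3.74% of all starts. The CRE stood before 4.35% against 1.55%, and the ERR motif before 0 of 46 against 1.14%. The median GC content of these windows was 57.4% for members and 52.4% for all starts. A match is a description of the letters and not evidence of binding.

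The adenine nucleotide carriers exchange ADP, ATP or ATP-Mg across the inner membrane. Of 8, 5 were tested, 0 passed the threshold and all 5 had negative differences, with a median of -0.03. Slc25a5 had an rlog of 12.72, 12.64, 12.65 and 12.64 in on replicates 1 to 4, against 12.81, 12.85 and 12.77 in off replicates. All on libraries lay below the off libraries, and the difference of -0.15 (SE 0.04) missed the threshold (limma adjusted p = 0.0547), as it did after the GC and length correction (-0.08, limma adjusted p = 0.191). It passed without on replicate 1 (-0.16, limma adjusted p = 0.0069). Slc25a5 shares 46.6% of its 50-base windows with 9 other annotated genes, among them processed copies, so reads of these genes may be divided among them. Slc25a4 had an rlog of 14.53, 14.32, 14.41 and 14.40 in on libraries, against 14.48, 14.53 and 14.45 in off libraries. The groups overlapped through on replicate 1, and the difference was -0.07 (SE 0.05, limma adjusted p = 0.407). The ATP-Mg carriers Slc25a23, Slc25a24 and Slc25a25 differed by -0.02, -0.03 and -0.03. Within each library Slc25a4 exceeded Slc25a5 in level per kilobase, by 1.12 ± 0.05 in on libraries and 1.04 ± 0.01 in off libraries (SD, n = 4 and 3).

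**Figure D3:**
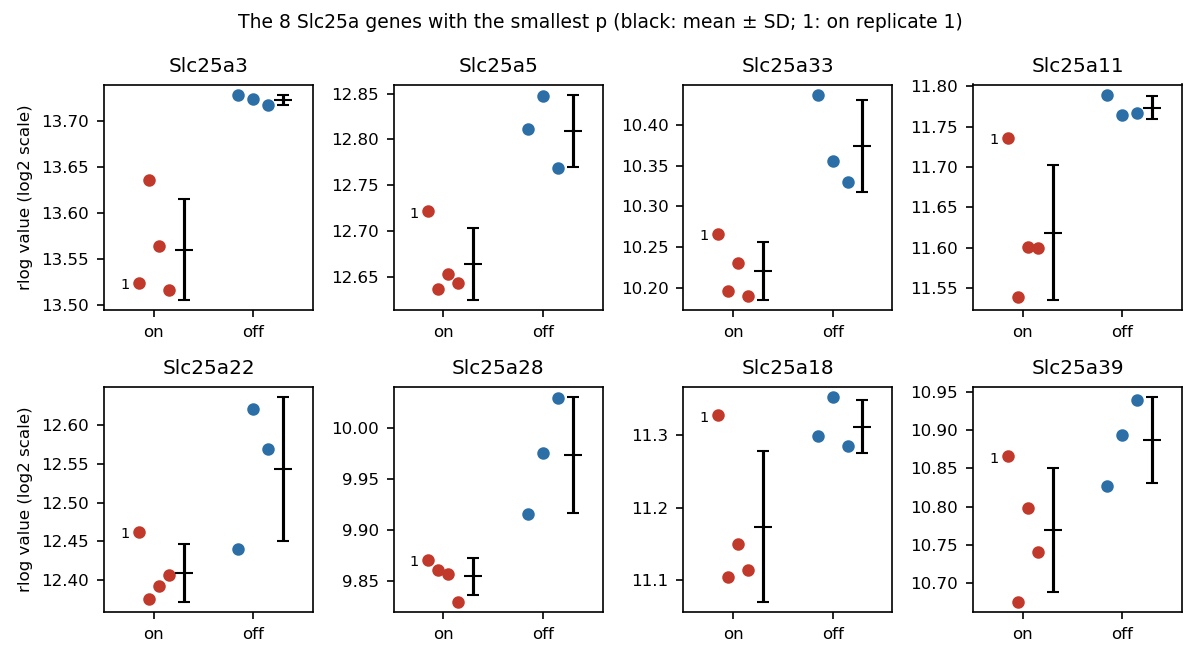
Rlog (log2 scale) of the 8 members with the smallest p, 1 point per library, on libraries (red, replicate 1 numbered) left of off libraries (blue), with mean and SD in black. For Slc25a3 the on points lie between 13.52 and 13.64 and the off points between 13.72 and 13.73, while the groups overlap for Slc25a22, Slc25a18 and Slc25a39.

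The aspartate and glutamate carriers numbered 4, all tested, with a median difference of -0.11 and 0 past the threshold. Slc25a22, a glutamate carrier, had an rlog of 12.46, 12.37, 12.39 and 12.41 in on libraries, against 12.44, 12.62 and 12.57 in off libraries. Off replicate 1 was low and lay within the on range, and the difference was -0.13 (SE 0.04, limma adjusted p = 0.112). It passed without off replicate 1 (-0.19, limma adjusted p = 0.0474) and without on replicate 1 (-0.15, limma adjusted p = 0.0258). Slc25a18, a glutamate carrier that in brain is found mainly in astrocytes, had an rlog of 11.33, 11.10, 11.15 and 11.11 in on libraries, against 11.30, 11.35 and 11.28 in off libraries. Its difference of -0.14 (SE 0.05) missed the threshold with all libraries (limma adjusted p = 0.152) and passed without on replicate 1 (-0.19, limma adjusted p = 0.0041). The 32 bases at which Slc25a18 overlaps Atp6v1e1 on the other strand are a small piece of the gene.

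Slc25a12 (aralar) and Slc25a13 (citrin) are calcium-activated exchangers of aspartate and glutamate in the malate-aspartate shuttle. Slc25a12 had an rlog of 12.73, 12.60, 12.63 and 12.63 in on libraries, against 12.70, 12.76 and 12.73 in off libraries, with a difference of -0.08 (SE 0.04, limma adjusted p = 0.258). Its transcript, at 6351 bases, is the longest of the tested members, and after the GC and length correction the difference was -0.14 (limma adjusted p = 0.139). With that correction and without on replicate 1, a setting added after the data were seen, it was -0.18 (limma adjusted p = 0.0044). With all libraries Slc25a12 did not pass, with or without the correction. Slc25a13 had the largest positive difference of the family, 0.08 (SE 0.06, limma adjusted p = 0.436). In level per kilobase Slc25a12 exceeded Slc25a13 in 7 of 7 libraries, by 3.70 ± 0.05 in on libraries and 3.86 ± 0.09 in off libraries (SD, n = 4 and 3).

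The di- and tricarboxylate carriers exchange oxoglutarate, malate, citrate and related acids. All 4 were tested, 0 passed the threshold, and the median difference was -0.11. Slc25a11, the oxoglutarate carrier of the malate-aspartate shuttle, had an rlog of 11.74, 11.54, 11.60 and 11.60 in on libraries, against 11.79, 11.76 and 11.77 in off libraries. All on libraries lay below the off libraries, with on replicate 1 close to them, and the difference was -0.15 (SE 0.04, limma adjusted p = 0.0795). Without on replicate 1 Slc25a11 had a difference of -0.19 and passed (limma adjusted p = 0.0029). The gene span of Slc25a11 shares 245 bases with Rnf167 on the other strand, a gene of like level (mean rlog 11.2). Of the 50-base windows of the Slc25a11 transcript, 0% occur in another annotated gene, Rnf167 included. No source used here gives the strand setting of the authors' counting, and whether reads of Rnf167 enter the Slc25a11 value was not tested. Slc25a10, the dicarboxylate carrier, had an rlog of 8.96, 8.74, 8.80 and 8.89 in on libraries, against 8.92, 8.94 and 9.08 in off libraries. The groups overlapped, with a difference of -0.13 (SE 0.06, limma adjusted p = 0.241). Slc25a1, the citrate carrier, had an rlog of 10.28, 10.12, 10.15 and 10.13 in on libraries, against 10.22, 10.24 and 10.32 in off libraries. On replicate 1 again lay among the off libraries, and the difference was -0.09 (SE 0.05, limma adjusted p = 0.307). Slc25a21, the oxodicarboxylate carrier, was weakly expressed, with a mean rlog of 4.68 in on libraries and 4.66 in off libraries.

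The cofactor and nucleotide carriers were 9 tested members with a median difference of -0.02, 0 of them past the threshold. Slc25a33 and Slc25a36 carry pyrimidine nucleotides. Slc25a33 had an rlog of 10.27, 10.20, 10.23 and 10.19 in on libraries, against 10.44, 10.36 and 10.33 in off libraries, so that no on library reached the lowest off library. Its difference was -0.15 (SE 0.04, limma adjusted p = 0.0683), and it passed without on replicate 1 (-0.17, limma adjusted p = 0.0144). Slc25a36 had an rlog of 11.61, 11.74, 11.69 and 11.71 in on libraries, against 11.64, 11.60 and 11.59 in off libraries. Here on replicate 1 lay within the off range and the other on libraries above it, and the difference was 0.08 (SE 0.04, limma adjusted p = 0.297). Slc25a36 minus Slc25a33, in level per kilobase, was -0.0037 ± 0.09 in on libraries and -0.23 ± 0.03 in off libraries (SD, n = 4 and 3). Both share sequence with other genes, Slc25a33 12.6% of its 50-base windows with 1 gene and Slc25a36 11.8% with 1 gene.

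Slc25a17, a carrier of cofactors in the peroxisomal membrane, had an rlog of 10.32, 10.31, 10.28 and 10.26 in on libraries, against 10.39, 10.32 and 10.37 in off libraries. The groups did not overlap but nearly touched, and the difference was -0.07 (SE 0.04, limma adjusted p = 0.339). Slc25a51, the NAD carrier, was the highest of this group per kilobase and the steadiest member, with an rlog of 11.74, 11.75, 11.76 and 11.73 in on libraries, against 11.73, 11.79 and 11.76 in off libraries, and a difference of -0.01 (SE 0.03, limma adjusted p = 0.858). Slc25a16, Slc25a26, Slc25a32 and Slc25a42 had differences between -0.07 and 0.07. Slc25a26 carries S-adenosylmethionine, Slc25a32 folate or FAD, and Slc25a42 coenzyme A.

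The iron and glutathione carriers were split in sign. Slc25a28 and Slc25a37 are mitoferrins, which import iron, and Slc25a39 and Slc25a40 carry glutathione. Slc25a28 had an rlog of 9.87, 9.86, 9.86 and 9.83 in on libraries, against 9.92, 9.98 and 10.03 in off libraries. All on libraries lay below the off libraries, and the difference of -0.12 (SE 0.04, limma adjusted p = 0.139) was -0.01 (SE 0.03, limma adjusted p = 0.954) after the GC and length correction. With the longest transcript of any type (3724 bases in place of 1535) the corrected difference was -0.12 (limma adjusted p = 0.145). Slc25a39 had an rlog of 10.87, 10.67, 10.80 and 10.74 in on libraries, against 10.83, 10.89 and 10.94 in off libraries. On replicate 1 lay within the off range, and the difference of -0.12 (SE 0.05, limma adjusted p = 0.188) was 0.0021 after the correction. Without on replicate 1 it was -0.15 and passed (limma adjusted p = 0.0296). Slc25a37 and Slc25a40 had differences of 0.06 (limma adjusted p = 0.486) and 0.05 (limma adjusted p = 0.572). In level per kilobase Slc25a37 minus Slc25a28 was -0.63 ± 0.10 in on libraries and -0.81 ± 0.07 in off libraries (SD, n = 4 and 3). These values take lengths of 4174 and 1535 bases, while the longest transcripts of any type have 5927 and 3724 bases. The order of Slc25a37 and Slc25a28 depends on that choice and is not settled. Slc25a39 minus Slc25a40 was 2.18 ± 0.13 in on libraries and 2.34 ± 0.09 in off libraries.

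The group taken as amino acid carriers beyond the glutamate group had 5 tested members, 0 past the threshold, and a median difference of -0.04. Slc25a38 imports glycine for heme synthesis. Its rlog was 9.42, 9.31, 9.43 and 9.34 in on libraries, against 9.49, 9.48 and 9.47 in off libraries. The groups did not overlap, and the difference was -0.11 (SE 0.05, limma adjusted p = 0.211). Slc25a44, a carrier of branched-chain amino acids and the highest of this group per kilobase, had an rlog of 11.73, 11.60, 11.66 and 11.65 in on libraries, against 11.65, 11.74 and 11.70 in off libraries. These ranges overlapped in part, with on replicate 2 below all off libraries, and the difference was -0.04 (SE 0.04, limma adjusted p = 0.644). Slc25a15, a carrier of ornithine, Slc25a29, a carrier of basic amino acids, and Slc25a48 had differences of -0.01, -0.10 and 0.02. Slc25a48 had a mean rlog of 3.63, close to the filter of 3, and its place among amino acid carriers was not checked here. The carnitine and acylcarnitine carrier Slc25a20, which brings fatty acids into the matrix, had an rlog of 8.76, 8.74, 8.75 and 8.71 in on libraries, against 8.71, 8.82 and 8.73 in off libraries. The ranges overlapped, and the difference was -0.02 (SE 0.05, limma adjusted p = 0.890).

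Slc25a14, Slc25a27 and Slc25a30 are relatives of the uncoupling proteins. Slc25a14 had an rlog of 10.52, 10.44, 10.51 and 10.43 in on libraries, against 10.56, 10.59 and 10.49 in off libraries. The groups overlapped, with a difference of -0.07 (SE 0.04, limma adjusted p = 0.342). Slc25a30 had a difference of -0.08 (SE 0.06, limma adjusted p = 0.468) and Slc25a27 one of 0.06 (SE 0.05, limma adjusted p = 0.578). The members of the outer membrane or with less settled substrates gave a median difference of -0.02 over 6 tested, with 0 past the threshold. Slc25a46, an outer membrane protein that acts in mitochondrial shape, had an rlog of 11.92 to 12.11 in on libraries, against 11.88 to 12.08 in off libraries. The groups overlapped over most of their ranges, and the difference was -0.0034 (SE 0.05, limma adjusted p = 0.980). Slc25a34, Slc25a35, Slc25a45, Slc25a47 and Slc25a53 had differences between -0.09 and 0.02. The gene span of Slc25a53 shares 5318 bases with Zcchc18 on the other strand. The mean rlog was 13.6 for Zcchc18 and 9.22 for Slc25a53. Of the 50-base windows of the Slc25a53 transcript, 0.159% also occur in other annotated genes, and Zcchc18 is not among those genes. Whether reads of Zcchc18 enter the level of Slc25a53 was not tested. The gene span of Slc25a35 shares 1882 bases with Rangrf. Of the windows of the Slc25a35 transcript, 25.8% occur in 6 other annotated genes, among them Rangrf.

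**Figure D4:**
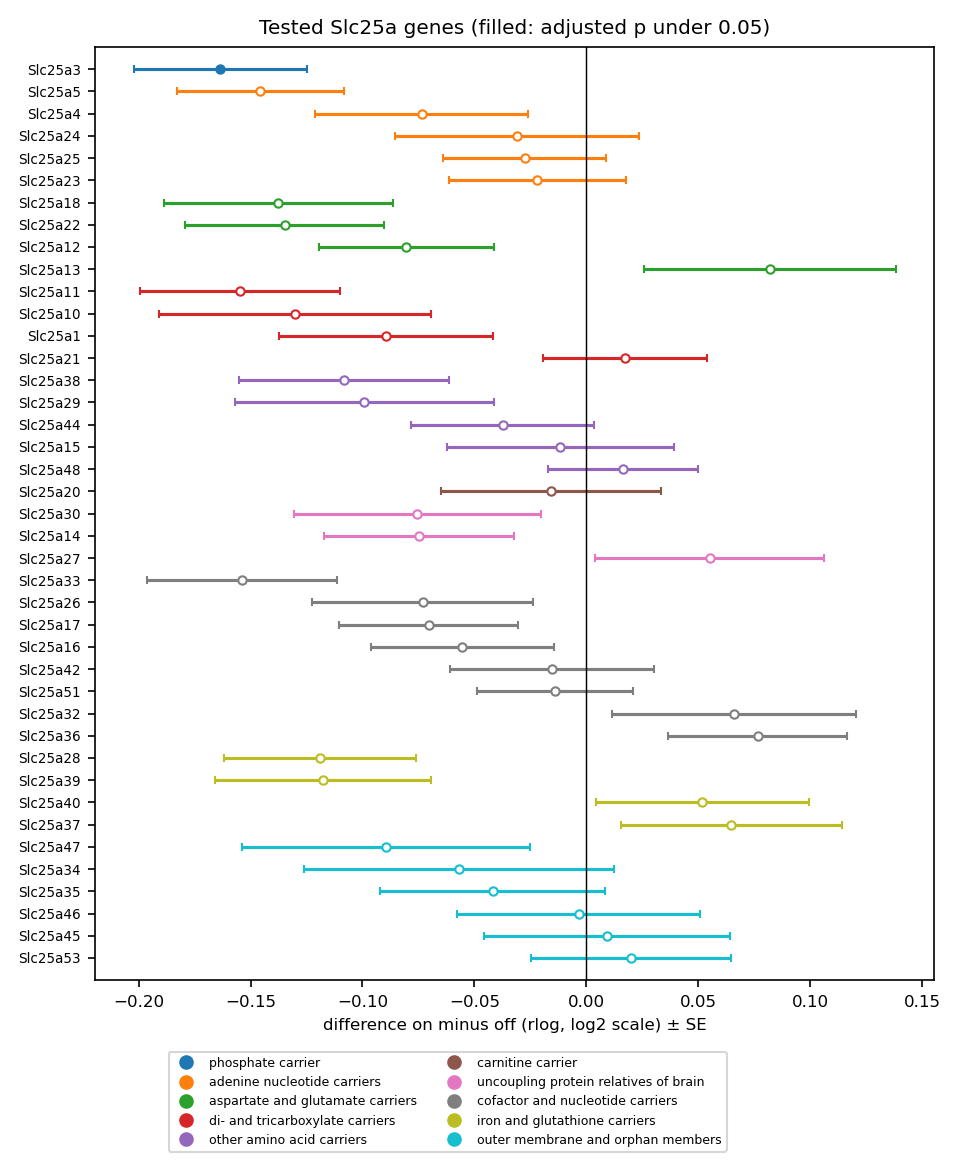
Difference of the tested members but 1, on minus off, in rlog units on the log2 scale, with moderated standard errors from limma, grouped and coloured by role, with the called member filled. The differences run from -0.16 (Slc25a3, the called member) to 0.08 (Slc25a13), with most below 0.

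Differences of the members went with transcript length. Over the 42 tested members, the Spearman correlation of the difference with transcript length was 0.637, and with GC content -0.508. Over 17831 tested genes of all kinds the same correlations were 0.390 and -0.389. These are correlations across genes of the same 7 libraries and are given as a description. Among the 14 members with the shortest transcripts (1240 to 1922 bases), 14 had negative differences, with a median of -0.11. Among the 14 of 1925 to 3196 bases, 8 were negative with a median of -0.01, and among the 14 of 3362 to 6351 bases, 10 were negative with a median of -0.02. The members named above with the smallest p, from Slc25a3 to Slc25a11, have transcripts between 1240 and 1887 bases. After the correction for GC content and length over all genes, 30 of 42 members were negative, the median was -0.02, and 0 members were called. Length went with the groups in these libraries, and its part in the differences was not tested beyond this correction.

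**Figure D5:**
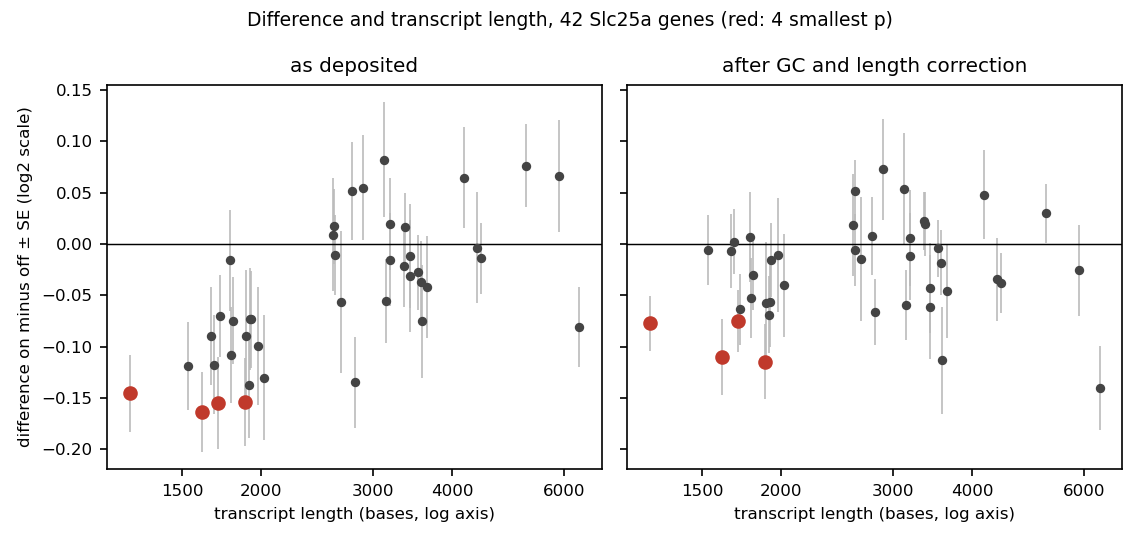
Difference of each tested member, on minus off, in rlog units on the log2 scale, against transcript length in bases on a log axis, as deposited (left) and after the GC and length correction (right), with SE as bars and the 4 members with the smallest p in red. As deposited, the 14 members with transcripts of up to 1922 bases lie below 0 and the median of the 42 is -0.05, while after the correction the median is -0.02.

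Genes that work with the carriers were looked at next. Of 39 genes in 7 lists (carrier relatives with other names, the pyruvate carrier and sideroflexins, outer membrane channels, the calcium uniporter complex, shuttle enzymes, carnitine enzymes and the insertion machinery), 38 were tested. Of these 1 fell and 0 rose, against 1.79% of all tested genes called lower and 2.6% in either direction. Differences were negative for 31, against 48.5% of all tested genes, with a median of -0.05. The median was positive for the carnitine enzymes alone among the 7 lists, at 0.04 with 3 of 5 positive. The on libraries all lay above the off libraries for 2 of the 38 genes, Sfxn2, a sideroflexin (0.14, limma adjusted p = 0.160), and Cpt1a, a carnitine palmitoyltransferase (0.09, limma adjusted p = 0.218), and below them for 11 of the 38. Among all tested genes, the on libraries all lay above the off libraries for 7.13% and below them for 8.09%. Sfxn2 and Cpt1a were named after their values were seen. Mpc2, a subunit of the mitochondrial pyruvate carrier, had an rlog of 10.88, 10.94, 10.92 and 10.92 in on libraries, against 11.12, 11.13 and 11.03 in off libraries. The groups did not overlap, and Mpc2 fell by 0.17 on the log2 scale (SE 0.04, limma adjusted p = 0.0354). The call was kept when on replicate 1 was left out (limma adjusted p = 0.0122) and lost when any other single library was left out, with the highest limma adjusted p at 0.198. After the GC and length correction the difference was -0.07 (limma adjusted p = 0.466), but with the longest transcript of any type (4015 bases in place of 1025) it was -0.19 and passed (limma adjusted p = 0.0133). That last setting was added after the data were seen.

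Genes with the smallest p of other lists did not pass. Mtch1, a carrier-like protein of the outer membrane, had a difference of -0.18 (limma adjusted p = 0.0608), and Timm22, the channel of the complex that inserts carriers, one of -0.17 (limma adjusted p = 0.101). Got2, the mitochondrial aspartate aminotransferase, differed by -0.10 (limma adjusted p = 0.169). Cpt1c, a brain form of carnitine palmitoyltransferase, differed by -0.10 (limma adjusted p = 0.195), and Tspo, an outer membrane protein, by -0.14 (limma adjusted p = 0.237). Without on replicate 1, 10 of the 38 related genes were called lower and 1 higher, where 8.02% of all tested genes were called lower and 16.3% in either direction. Mtch1, Timm22, Got2 and Tspo were among the lower ones, with limma adjusted p between 0.0016 and 0.0435.

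Markers of brain cell types gave 0 called genes in each of 7 lists of 5 genes, all detected and tested, with all libraries in the limma fit. Without on replicate 1, limma called 3 endothelial markers higher, 2 oligodendrocyte and 1 microglial marker lower, and 0 in the other 4 lists, where 16.3% of all tested genes were called in either direction. The median difference was -0.06 for neurons, -0.01 for astrocytes, -0.07 for oligodendrocytes, -0.08 for microglia, 0.14 for endothelium, -0.08 for erythroid cells and 0.02 for choroid plexus. Summed levels overlapped between groups in each list. For neurons they were 17.46 to 17.52 in on libraries and 17.46 to 17.61 in off libraries, and for astrocytes 15.76 to 15.87 in on libraries and 15.78 to 15.83 in off libraries. For oligodendrocytes they were 17.75 to 18.01 in on libraries and 17.83 to 17.98 in off libraries, and for endothelium 11.98 to 12.44 in on libraries and 11.96 to 12.26 in off libraries. The part of cell type makeup in the differences of the carriers was not tested.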

How the data were processed

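RNA of mouse brain was measured by RNA sequencing in 7 libraries. Per the labels' protocols, a Qiagen miRNeasy kit was used for extraction and the TruSeq Stranded mRNA kit for the libraries. Per the submitters' processing notes, DESeq2 1.16.1, Subread 1.5.3, STAR 2.5.2, BWA 0.7.14-r1136, cutadapt 1.9.1 and the build GRCm38 were used, with no role or order given for each. The authors deposited regularized log2 values, 1 column per library, which shrink differences of weakly expressed genes. Counts were not used here, so depth is unknown.

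Of 48526 identifiers, 48058 had a symbol and 13834 are listed at 0 in every library. The 17896 genes with a mean of 3 or more entered a limma fit (limma 3.58.1, R 4.3.3) on the group, with an intensity trend, two-sided, with Benjamini-Hochberg adjustment over all tested genes at 0.05. The fit was checked on simulated data. Errors of differences are moderated SE. Transcript length and GC content came from the longest basic transcript of GENCODE M21, and the correction for them fitted smooth terms with mgcv 1.9.3 in each library, within 3 classes of level. Shared sequence was counted in 50-base windows. Promoters came from RefSeq (GRCm38.p6).

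Named members were those past the threshold, further ones by smallest p until 15, the highest per kilobase of each role and those whose groups did not overlap. Of related lists, genes past the threshold and otherwise the gene with the smallest p were named. Members, roles and lists were chosen with earlier results of these data known. Alternatives were other filters, median centring, quantile normalization, no trend, array weights, a replicate block, the correction, and leaving out each library. Values of 1 member and 1 related gene are not reported here, though both stay in the fits and counts.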

Additional observations from a re-analysis of the deposited data

Results flagged for a closer look

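Slc25a34, a member with a less settled substrate, had an rlog of 8.43 in on replicate 1, against 8.15 to 8.18 in the other on libraries. The gap to the nearest of them was large for a group of 4 by Dixon's criterion at the 95% level. The off libraries lay between 8.21 and 8.35. This was 1 group of values out of 43 looked at, where chance is expected to give about 2.15.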

How the results depend on the processing

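Under the alternatives, the 1 called member became 0 with no filter, median centring, no intensity trend, the GC and length correction, and 6, all lower, with array weights. Chosen after seeing the data, the correction without on replicate 1 gave 2 (Slc25a12 lower, Slc25a27 higher), and leaving out each library gave 0 to 7. Quantile normalization also called 1 member, but it was Slc25a5 (adjusted p = 0.048) and not Slc25a3 (adjusted p = 0.0518). The 466 called genes became 7 with no filter, 237 with no trend, 2215 with array weights, 60 with the correction, 1632 with the correction without on replicate 1, and 43 to 2917 when each library was left out. The median difference of the members became -0.022 with the correction and ranged over -0.06 to -0.04 when each library was left out. With the correction taken from the longest transcript of any type, also added after seeing the data, 93 genes were called, the median was -0.028 and Slc25a3 passed (-0.18, adjusted p = 0.0265), with a length of 4039 bases in place of 1612. The cause of these changes was not tested.

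No pairing of the samples by replicate number was seen. The deviations of same-numbered libraries correlated at -0.229, -0.1 and 0.0176, and 0 of 6 libraries correlated best with their own number. With so few libraries this check cannot exclude pairing. The fit with the replicate block called 30 genes and 0 members and, with the correction, 6 genes and 0 members, with a member median of -0.018.

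Some differences changed sign, to values near 0. Slc25a1 became 0.0036 under block and correction and 0.00030 with the longest transcript. Slc25a20 became 0.0071 with the correction, 0.0141 with the block added and 0.0046 with the correction without on replicate 1, and ranged over -0.038 to 0.018 when each library was left out. Slc25a28 became 0.0045 with the correction without on replicate 1. Slc25a39 became 0.0021 with the correction, 0.0074 with the block added and 0.0114 with the longest transcript. Slc25a46 became 0.0031 with median centring and 0.0038 with the block, and ranged over -0.058 to 0.045 when each library was left out. Of 486 values of 27 named genes under alternatives, 420 kept direction and side of the threshold. Most of these genes were not called in the main fit, so keeping their side says little. Only Slc25a3 and Mpc2 were called there, and all 25 values that lost a call belong to them. Both lost the call under most alternatives. Depth is unknown, so how far it limits weakly expressed members cannot be said.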
